A study of Mus musculus with 4 samples.

Results

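Heat shock factors, chaperones and cochaperones, most of them of the cytosol and mitochondria, were followed in RNA sequencing of mouse sciatic nerve. Members were taken by gene symbol: the Hsf factors, the Hsp90, Hspa, Hspb, Hspd, Hspe and Hsph genes, all Dnaj genes, the Bag genes and the Cct genes. Symbols of pseudogenes were left out, as were Hspa5, Hsp90b1, Dnajb9, Dnajb11 and Dnajc3, which serve the endoplasmic reticulum, while other genes of that compartment such as Dnajc10 and Dnajc1 are members. This gave 88 members among 50593 genes of the deposited table. The rule reads symbols and no values, although it was set with earlier results of these data known. The labels list 2 HSF V30M TTR mice and 2 HSF WT TTR mice of strain 129S1/SvImJ, all 6 months old.

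The HSF V30M mice carry the human TTR V30M transgene, lack endogenous Ttr, and have a heterozygous deletion of Hsf1. The HSF WT mice, the controls, carry the same heterozygous Hsf1 deletion and no transgene, so Hsf1 dosage is reduced by design in both groups. The promoter of the transgene is not given in the sources used here. The study sequenced these nerves to ask about the chemokine response, and chaperones were not its question. Levels are FPKM, the fragments per kilobase of transcript scaled to depth, and each gene has 1 level per group. With single mice not given in the table, neither the spread among mice nor a test between the groups can be had. HSF V30M and HSF WT stand throughout for the groups so labelled, because mouse Ttr, which is null in HSF V30M by design, had a level of 6.10 there and is listed at 0 in the controls. The table does not separate reads of the human transgene from those of mouse Ttr.

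Chaperones bind unfolded segments of proteins and keep them from aggregating. HSP70 works in cycles of ATP hydrolysis that J-domain proteins start and that Bag proteins, as nucleotide exchange factors, help to end. HSP110 also exchanges nucleotide on HSP70, HSP90 finishes the folding of kinases and steroid receptors, the ring-shaped chaperonins enclose their substrates, and small heat shock proteins hold unfolded proteins without ATP. Heat shock factor 1 (HSF1) is the main inducer of these genes under proteotoxic stress. It binds heat shock elements, which are repeats of the unit NGAAN in alternating orientation. Transthyretin with the V30M change is prone to misfold and deposits outside the cells of the nerve.

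The letters of this element were searched in RefSeq promoters of GRCm38.p6, which run from 250 bases before to 50 after a start site and were found for 70 of the 88 members. A pair of units, written GAANNTTC or TTCNNGAA (each reads the same on both strands), stood in 22 of these members, or 31.4%, and in 17.0% of all 27025 genes with a promoter. The run of 3 units, written GAANNTTCNNGAA or TTCNNGAANNTTC and containing pairs by construction, stood in 4 members, or 5.71%, against 0.662% of all genes. Those 4 were Dnajb6, Hspd1, Hspe1 and Hsph1. Among the 16 promoters of genes that heat is known to induce, 11 held the pair. The stretches below are a selection of those that carry the element before a start site of genes whose levels are described further on. They include Dnaja1, Dnajc10 and Hspb6, all of the members found past 1.5-fold below that held a pair. Others described further on, such as Dnajb6, Cct2 and Cct5, also carry the letters before a start site and are not shown. Capitals mark the matched letters, and each runs 5′ to 3′ on the strand of its gene. A match is only a match of letters.

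Hspd1 (chr1:55088053-55088082, minus strand): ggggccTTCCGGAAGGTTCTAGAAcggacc
Hspe1 (chr1:55088053-55088082, plus strand): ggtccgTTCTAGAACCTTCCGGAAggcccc
Hspa1a (chr17:34972238-34972275, minus strand): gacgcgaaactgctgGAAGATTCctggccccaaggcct
Hspb1 (chr5:135887787-135887844, plus strand): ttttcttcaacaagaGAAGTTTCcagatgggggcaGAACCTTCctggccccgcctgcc
Dnaja1 (chr4:40722333-40722362, plus strand): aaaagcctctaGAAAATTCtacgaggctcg
Dnajc10 (chr2:80315269-80315306, plus strand): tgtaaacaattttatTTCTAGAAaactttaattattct
Hspb6 (chr7:30553166-30553203, plus strand): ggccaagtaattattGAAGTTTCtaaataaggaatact

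Hspd1 and Hspe1 are neighbours read in opposite directions, and their stretch is the same DNA seen from both strands. The stretch before Hspa1b (chr17:34959320-34959357) is letter for letter that of Hspa1a. The Hspd1 and Hspe1 stretch lies within an annotated exon of an Hspd1 transcript, and the Dnaja1 stretch within annotated exons of Dnaja1 and Gm6297. The Hspb6 stretch lies in no annotated exon but inside the annotated range of Hspb6 (chr7:30552178-30555443).

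Of the 88 members, 75 reached a mean of 1 FPKM over the 2 groups and 13 did not. Among the 75, 7 were lower and 2 were higher in HSF V30M by more than 1.5-fold on the log2(FPKM + 1) scale, a scale that understates the change of low genes. The 7 lower ones were Hsf1, Dnaja1, Dnajc10, Dnajc6, Dnajc8, Dnajc25 and Hspb6, and the 2 higher ones were Bag2 and Cct4. By the same measure 8.44% of all 15620 genes that reached this mean were lower, 8.22% were higher and 16.7% were either. Among protein-coding genes, which most members are, the shares were 5.32%, 5.03% and 10.3%. The members' shares were 9.33% lower and 2.67% higher, so their lower share was near that of all genes and above that of protein-coding genes, and their higher share was below both. For protein-coding genes that reached a mean of 5 FPKM the shares were 3.98% lower, 4.15% higher and 8.13% either, beside 5 lower and 1 higher among the 64 members at that level. Whatever the size of the ratio, 45 of the 75 members were on the lower side and 30 on the higher side. Their median log2 ratio, HSF V30M to HSF WT, was -0.06. For all genes, 49.6% were on the lower side and the median was 0.00. Cct4, at 0.59, lay just past the fold of 0.585 on the log2 scale, and Bag4, at 0.52, just short of it. Dnajc6, counted among the lower members, reached the minimum of 1 FPKM only through its HSF WT value.

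**Figure D1:**
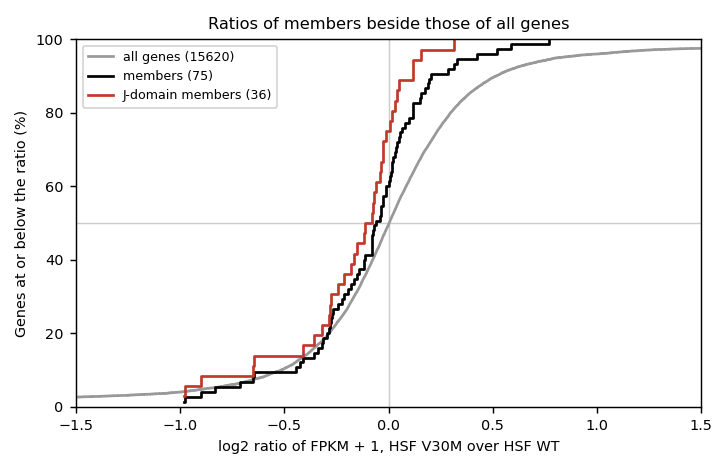
Share of genes (y axis, percent) at or below each log2 ratio of FPKM + 1, HSF V30M to HSF WT (x axis), for all 15620 genes that reached a mean of 1 FPKM (grey), the 75 members (black) and the 36 J-domain members (red). The black line crosses 50% at -0.06 and the red line at -0.10, while the grey line crosses it at 0.00. Ratios of all genes beyond -1.5 and 1.5 are off the axis.

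Depth can be judged from the low values, which fall on multiples of what 1 fragment is worth, and the number of fragments behind a value is given below as a range over libraries and annotated coding transcripts. Fold changes are followed by a 95% interval from the fewest fragments of that range. These intervals and the limits at 0 cover counting error only and say nothing of the spread between mice.

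Of the Schwann cell markers, the myelin gene Mbp had 3854 and 3441 FPKM, the Schwann cell factor Sox10 had 75.7 and 54.8, and S100b, past 1.5-fold, had 328 and 201. Here and below, where values come in pairs, HSF V30M stands first and HSF WT second. Markers of other cell types moved between the groups. Summed FPKM of the 10 skeletal muscle markers was 45.8 and 164, and all 7 that reached a mean of 1 FPKM were lower in HSF V30M by more than 1.5-fold. The 4 smooth muscle markers summed to 641 and 1268 but were split, with Tagln (472 and 1102) and Myh11 (17.0 and 26.3) lower past 1.5-fold, Cnn1 (4.74 and 2.61) higher past it, and Acta2 at 147 and 137. The 5 adipocyte markers summed to 1131 and 1733. The 5 B cell markers summed to 2.23 and 21.2, and the 5 T cell markers to 1.73 and 7.64. All 6 erythrocyte markers were higher in HSF V30M, with sums of 291 and 101. Of the 7 neutrophil markers, which summed to 112 and 34.2, 6 were higher past 1.5-fold and Csf3r (2.63 and 6.05) was lower past it. The macrophage (259 and 355), endothelial (101 and 107) and fibroblast (1871 and 1821) sums differed less. Of the 5 macrophage markers, 4 were on the lower side, with Cd68 (15.5 and 30.9) past 1.5-fold. Adgre1 (7.98 and 7.70) was on the higher side. The 8 immediate early genes, which respond within minutes to handling, summed to 172 and 158, and none was past 1.5-fold. In whole nerve, fewer cells of a type and less RNA per cell cannot be told apart, and the part of these cell types in the values of the members was not tested.

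Heat shock factors were led by Hsf1 (ENSMUSG00000022556, chromosome 15 from 76477422 to 76501913 of GRCm38, plus strand). Its FPKM was 7.94 in HSF V30M, from 302 to 384 fragments. In HSF WT it was 14.95, from 408 to 592 fragments. Hsf1 was thus 1.88-fold lower in HSF V30M, with a counting interval of 1.62 to 2.19. None of its exons overlaps another gene, and none of its 50-base words occurs in transcripts of other genes. The table has no value per exon, so transcripts of the intact and of the deleted allele cannot be told apart. Hsf4, which is best known from the lens, had 6.81 and 4.83, a ratio of 1.41 (1.07 to 1.88). Hsf2, a partner of HSF1 with a role in development, had 3.21 and 3.03, a ratio of 1.06 (0.821 to 1.37). Hsf3 and Hsf5 were at or below 0.09 in both groups, a few fragments each. Hsf1 was the most abundant factor in both groups, and the distance between Hsf1 and Hsf4 was small in HSF V30M.

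**Figure D2:**
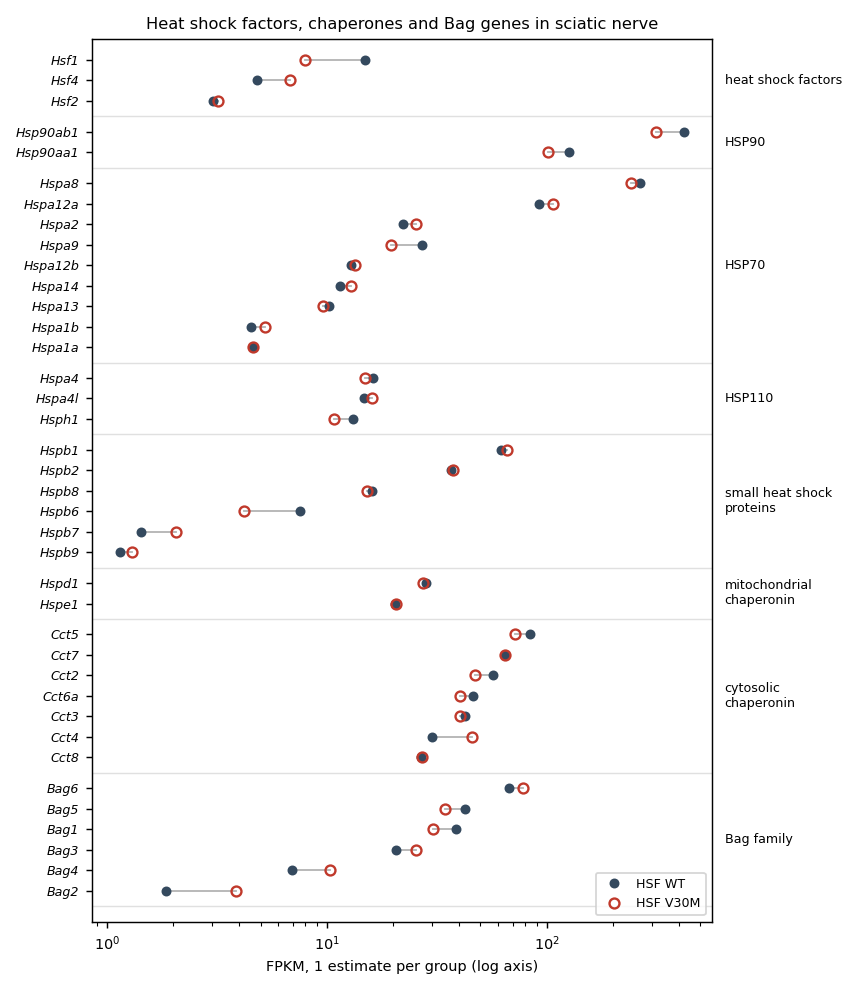
FPKM of each member with a mean of at least 1 (x axis, log scale) for the heat shock factors, chaperones and Bag genes, ordered by role and mean level. Filled points are HSF WT and open points HSF V30M, 1 estimate per group with no replicate error. Hsf1, Hspb6, Cct4 and Bag2 have the widest gaps, and Hsp90ab1 and Hspa8 the highest levels.

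Genes that HSF1 is known to induce under stress were split in direction. Of 21 such genes, members and others, 12 were on the higher side in HSF V30M and 9 on the lower. Their median log2 ratio was 0.02. Among all genes, 49.6% were on the lower side. Dnaja1 alone was past 1.5-fold, lower, which is 4.76% of the list beside 8.44% of all genes. The 14 that are members were split 7 and 7, with a median of -0.02. Hspa1a and Hspa1b, the classical stress-induced HSP70 genes, were low in both groups. Hspa1a had 4.64 and 4.63, a ratio of 1.002 (0.832 to 1.21), and Hspa1b had 5.24 and 4.53, a ratio of 1.16 (0.958 to 1.40). The 2 genes share 58.8% of the 50-base words of Hspa1a, so the split between them is uncertain. Dnajb1, the J-domain partner that is induced with them, had 10.4 and 9.23. Bag3, which links HSP70 to small heat shock proteins and to autophagy, had 25.5 and 20.7, a ratio of 1.23 (1.12 to 1.35). Hsph1, the inducible HSP110, went the other way with 10.8 and 13.2, 1.22-fold lower (1.09 to 1.37). The mitochondrial pair Hspd1 and Hspe1, which together form the HSP60 and HSP10 chaperonin, had 27.5 and 28.3 and 20.7 and 20.3. Their ratios were 0.973 (0.895 to 1.06) and 1.017 (0.837 to 1.24), in the 2 genes on either side of the element shown above. Other annotated transcripts hold 44.8% of the 50-base words of each, and the exons of both overlap.

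HSP90 was lower in HSF V30M for both genes. Hsp90ab1, the constitutive form, had 313 and 421, 1.34-fold lower (1.31 to 1.37). Hsp90aa1, the inducible form, had 102 and 127, 1.25-fold lower (1.20 to 1.29), and 56.1% of its 50-base words occur in other annotated transcripts, mostly of the pseudogene Gm12346, which was at 0.170 and 0.723. Neither passed 1.5-fold. Summed over both, the level of HSP90 transcripts was 415 and 548. These are among the most abundant members, with at least 5195 fragments behind every value, so counting error is small here and the spread between mice is unknown.

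The HSP70 genes stayed within 1.5-fold. Hspa8, the constitutive cytosolic HSP70, had 242 and 266, 1.10-fold lower (1.07 to 1.14). Other transcripts, mainly of the pseudogene Gm15459, hold 73.4% of its 50-base words, and Gm15459 was at 26.4 and 32.7. Hspa9, the HSP70 of mitochondria that pulls proteins through the inner membrane, had 19.7 and 27.2, 1.38-fold lower (1.27 to 1.496), the lowest ratio of the family. Hspa12a, an atypical HSP70 known from brain and neurons, had 106 and 92.8, a ratio of 1.15 (1.08 to 1.22). Its relative Hspa12b, known from endothelium, had 13.5 and 13.0. Of the 9 HSP70 genes that reached the minimum, 6 were on the higher side and 3 on the lower. The HSP110 genes Hspa4, with 14.9 and 16.3, and Hspa4l, with 16.1 and 14.8, differed by less than Hsph1.

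Small heat shock proteins were led by Hspb1 (HSP27 in humans, mutated in inherited neuropathy), with 65.9 and 62.2, a ratio of 1.06 (0.959 to 1.17). Of its 50-base words, 48.8% occur in the pseudogene Hsp25-ps1, which was at 1.16 and 0.738. Hspb8, the partner of BAG3 and also a neuropathy gene, had 15.2 and 16.1. Hspb2 had 37.6 and 36.6, and 24.4% of its words lie in Cryab, the alpha-B crystallin gene beside it, which was far higher at 991 and 905. Hspb6, which is abundant in smooth, cardiac and skeletal muscle, stood apart. It had 4.22, from 106 to 125 fragments, and 7.57, from 136 to 183 fragments, 1.79-fold lower (1.38 to 2.34). Its exons overlap Lin37, at 11.9 and 14.3, and Proser3, at 3.36 and 4.29. Skeletal muscle markers were lower too, with Ckm at 8.97 and 43.8, whereas the smooth muscle markers given above were split, 2 lower and 2 on the higher side. Their part in the Hspb6 value was not tested. Hspb7, another muscle gene, was at 2.06 and 1.44, the other direction, a ratio of 1.43 (1.03 to 2.01).

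The cytosolic chaperonin is a double ring of 8 different subunits that folds actin and tubulin. Its subunit genes, Tcp1 included, had levels from 26.8 FPKM, for Cct8 in HSF WT, to 83.9, for Cct5 in HSF WT. Cct5, with 71.7 and 83.9, and Cct2, with 47.1 and 57.1, were on the lower side in HSF V30M. Cct7, with 64.4 and 64.9, Cct8, with 27.0 and 26.8, and Cct3, with 40.2 and 42.5, had nearly equal values. Cct4 (chromosome 11 from 22990519 to 23003780) alone was past 1.5-fold, with 45.9 and 30.1, a ratio of 1.52 (1.39 to 1.67). Without Cct4, 6 of the 7 other subunit genes were on the lower side, with log2 ratios from -0.27 to 0.01. No annotated gene overlaps Cct4, and 0.645% of its 50-base words occur elsewhere. The subunits enter the ring in equal number, but no protein was measured here.

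J-domain proteins were the largest family, with 42 members, of which 36 reached a mean of 1 FPKM. On the lower side in HSF V30M were 27 of the 36, against 49.6% of all genes, and 5 were past 1.5-fold, all of them lower. This is 13.9% of the family, beside a background of 8.44% for genes lower by that fold. Most of them were in class C, the structurally mixed class that shares only the J domain, where 20 of 24 were lower with a median log2 ratio of -0.16. In class B it was 5 of 8, with a median of -0.07, and in class A 2 of 4. Members were not fixed independently of results of these data, so these counts are a description. Dnajc6 is among the 5 past 1.5-fold although it reached the minimum only through its HSF WT value.

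**Figure D3:**
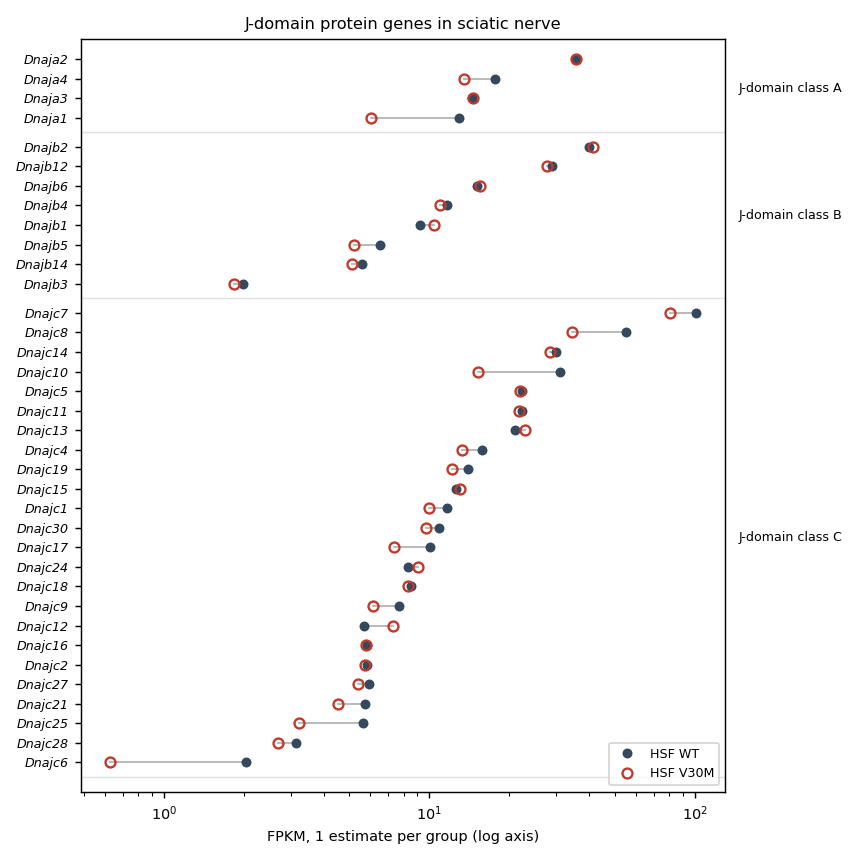
FPKM of each J-domain member with a mean of at least 1 (x axis, log scale), by class and mean level, with HSF WT filled and HSF V30M open, 1 estimate per group with no replicate error. The open points lie left of the filled ones in 27 of 36 genes, with the widest gaps in Dnaja1, Dnajc10 and Dnajc6.

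Dnaja1, a class A cochaperone of cytosolic HSP70 (chromosome 4 from 40722150 to 40737149), had 6.05, from 414 to 833 fragments, and 12.9, from 633 to 1455 fragments. It was 2.13-fold lower (1.88 to 2.42). Its annotated exons meet those of Smu1, at 12.0 and 11.1, and of Gm6297, at 0.770 and 1.18, and 15.3% of its 50-base words occur in the pseudogene Gm15542 at 0.080 and 0.114. The close relatives Dnaja2, with 35.7 and 35.6, and the mitochondrial Dnaja3, with 14.6 and 14.4, had nearly equal values in both groups. Dnaja4 had 13.5 and 17.6, a ratio of 0.769 (0.674 to 0.877), and shares 43.8% of its words with Wdr61.

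Dnajc10 (chromosome 2 from 80315466 to 80354043) encodes ERdj5, a disulfide reductase of the endoplasmic reticulum that works with the HSP70 of that compartment. It had 15.2, from 1262 to 1486 fragments, and 31.0, from 1841 to 2479 fragments, 2.04-fold lower (1.89 to 2.19). No annotated gene overlaps it and none of its words occurs elsewhere. Hspa5, the HSP70 it works with, is no member here and was at 98.5 and 144. Dnajc1, another J protein of that compartment, had 9.94 and 11.7, 1.18-fold lower (1.07 to 1.29).

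Dnajc8, which is found with the spliceosome, had 34.4 and 54.7, 1.59-fold lower (1.39 to 1.82). Dnajc6, which encodes the auxilin that uncoats clathrin vesicles and is best known from neurons, had 0.630, from 67 to 82 fragments, and 2.04, from 155 to 217 fragments. This was 3.24-fold lower (2.42 to 4.38), the largest linear fold among members that reached the minimum. Dnajc6 reached that minimum only through its HSF WT value, as its HSF V30M value is under 1 FPKM. Dnajc25 had 3.23 and 5.62, 1.74-fold lower (1.24 to 2.44), and its exons overlap the gene Gm20503, which is at or near 0 in both groups. Dnajc7, the most abundant J-domain gene of the nerve and a cochaperone that binds both HSP70 and HSP90, had 80.7 and 101, 1.25-fold lower (1.19 to 1.31), with exons shared with Cnp and Nkiras2.

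The other class C genes stayed within 1.5-fold. Among them Dnajc17 (7.33 and 10.1) was 1.37-fold lower (1.06 to 1.77), Dnajc21 (4.54 and 5.71) 1.26-fold lower (1.01 to 1.56) and Dnajc9 (6.15 and 7.69) 1.25-fold lower (1.01 to 1.55). Dnajc5, which encodes the cysteine string protein of synaptic vesicles, had 21.9 and 22.4, a ratio of 0.980 (0.831 to 1.16). Dnajc11, of the mitochondrial membrane, had 21.8 and 22.3, and Dnajc13, which sorts endosomes, had 22.8 and 20.9. Dnajc12 was the highest by ratio, with 7.29 and 5.66, a ratio of 1.29 (1.10 to 1.51). In class B, Dnajb2, whose loss causes an inherited motor neuropathy, had 41.1 and 39.9, a ratio of 1.03 (0.928 to 1.14). Dnajb6, which suppresses aggregation of polyglutamine proteins and carries 1 of the promoter runs described above, had 15.5 and 15.1. All 8 class B genes that reached the minimum stayed within 1.5-fold.

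**Figure D4:**
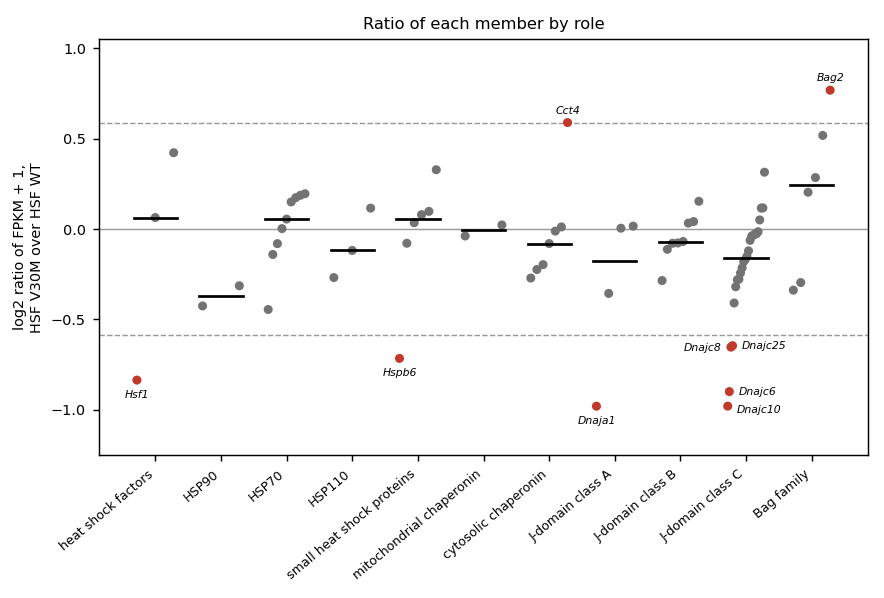
Log2 ratio of FPKM + 1, HSF V30M to HSF WT (y axis), for members with a mean FPKM of at least 1, grouped by role (x axis). Each point is 1 gene and red points are past 1.5-fold (dashed lines). Black bars are medians, and Hspb11, whose symbol but not its structure puts it with the small heat shock proteins, is not drawn.

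Among the Bag genes, 4 of 6 were on the higher side in HSF V30M and the median log2 ratio was 0.24. Bag2, which inhibits the ubiquitin ligase CHIP, had 3.87 and 1.86, a ratio of 2.08. Its shortest coding transcript has 378 bases, so the values may stand for as few as 15 and 5 fragments or as many as 163 and 64, and the interval from the fewest, 0.720 to 7.33, includes no change. Bag4 had 10.3 and 6.92, a ratio of 1.495 (1.34 to 1.67), with 19.7% of its words in Gm17484. Bag6, the most abundant, which guards tail-anchored and misdelivered proteins, had 78.0 and 67.5, a ratio of 1.15 (1.11 to 1.20). Bag1, with 30.5 and 38.8, and Bag5, with 34.4 and 42.4, were 1.27-fold (1.13 to 1.44) and 1.23-fold (1.14 to 1.34) lower.

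The wider chaperone network was read from a list of 45 genes outside the members, of which 44 reached the minimum and 7 are also among the inducible genes above. Of these, 26 were on the lower side and 18 on the higher, with a median log2 ratio of -0.07, close to the members. Past 1.5-fold, 3 were lower, Unc45a, Pfdn2 and Stub1, and 2 higher, Pfdn4 and Fkbp5. These are 6.82% and 4.55% of the list, below the 8.44% and 8.22% of all genes. Unc45a, a myosin-directed cochaperone of HSP90, had 16.5 and 29.7. Stub1, which encodes the ligase CHIP that marks clients of HSP70 for degradation, had 24.5 and 37.3. Fkbp5, an HSP90 cochaperone induced by glucocorticoids, had 20.9 and 12.3. The prefoldin genes Pfdn2, with 28.1 and 49.1, and Pfdn4, with 8.70 and 4.51, went opposite ways although prefoldin, which hands actin and tubulin to the chaperonin, contains both. The HSP90 cochaperones Cdc37 (49.6 and 61.0), Ptges3 (19.7 and 24.0) and Stip1 (26.2 and 30.4) were on the lower side. Other cochaperones of HSP90 were on the higher side, with Fkbp4 at 37.4 and 32.2, Ahsa1 at 28.4 and 26.7, Chordc1 at 11.8 and 11.4 and Ahsa2 at 11.7 and 10.7, besides Fkbp5.

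Promoter letters and ratios can be set side by side. Among members that reached the minimum, 14 held a pair of units but no run of 3, and their median log2 ratio was -0.16, from -0.98 to 0.29. The 4 members with the run of 3 had a median of -0.01, from -0.27 to 0.03, and the 41 with a promoter and neither motif had -0.01, from -0.90 to 0.77. Of the 7 members past 1.5-fold that have a promoter entry, 3 held the pair, Dnaja1, Dnajc10 and Hspb6, whose stretches are shown above. The pair stood in 31.4% of all members with a promoter and in 17.0% of all genes. With so few genes, a link between the letters and the ratios was not tested. Cct4 and Hsf1 have no entry.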

How the data were processed

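Sciatic nerve RNA of both groups was made into libraries for Ion Torrent sequencing. The authors aligned reads to GRCm38, and the submitters' processing notes name STAR, Cufflinks and Cuffdiff, with versions and gene annotation not given in the sources used here. The deposited table holds FPKM per gene and group, made by the authors with Cuffdiff, with decimal commas and an incomplete header, so columns were read by number. Its other columns hold the authors' fold changes and p-values, which were not used. Left out were 23 genes for which Cuffdiff gave up on an estimate because of their many alignments.

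The ratio was the log2 of HSF V30M plus 1 divided by HSF WT plus 1, a pseudocount of 1 FPKM. A gene was past the fold where the ratio exceeded 1.5-fold and the mean of the 2 group values was 1 FPKM or more. No test was made, since each group has 1 value. Members and lists were chosen with earlier results of these data known. Genes named are the heat shock factors, members past the fold, the highest and most extreme members of each role, and the inducible genes. Other names, those of the network and marker lists included, were chosen after their values were seen.

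The worth of 1 fragment was read from the low values among 17276 genes with a single transcript and no overlapping gene. There were 1190 such values in HSF WT and 550 in HSF V30M, and the worths are medians at their 2 largest piles. After 200 bases were subtracted from each length, low values of HSF WT lay on steps of 0.0481 and 0.0648, and those of HSF V30M on steps of 0.0394 and 0.0464. Depths within a group thus differed 1.35-fold in HSF WT and 1.18-fold in HSF V30M. A limit at 0 is 3 fragments on the shortest coding transcript. Intervals are 95% exact binomial (Clopper-Pearson) intervals. The fold calls, and the worth of a fragment as read for HSF WT, were tested on simulated data without rounding. HSF V30M values, which are rounded in the deposited table, were read with coarser settings, and that reading was not simulated. Transcripts, positions and words of 50 bases are from GENCODE M21 of GRCm38, and promoters from RefSeq (GRCm38.p6). Also tried were scaling by the median of ratios, 0.1 as the pseudocount, a minimum mean of 5 or none, a fold of 2, protein-coding genes only, and members without overlapping genes or near-identical copies (20% of words or more). Software comprised matplotlib 3.10.9 for plots, scipy 1.17.1 for intervals, and pandas 2.3.3 with numpy 2.4.6 on Python 3.11.15. The summed level of the Schwann cell markers is not reported here.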

Additional observations from a re-analysis of the deposited data

How the results depend on the processing

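No paired analysis was possible because single mice have no values of their own in the data, and for the same reason no library could be left out. The number of members past the fold was 2 higher and 7 lower, and the same 9 genes were called with a pseudocount of 0.1, with median-of-ratios scaling, without a minimum and among protein-coding genes. With a pseudocount of 0.1, 10.9% of all genes were higher and 10.8% lower, so the members' lower share of 9.33% was below that background. The background was 8.28% higher and 8.37% lower with the scaling. It was 6.06% and 6.30% without a minimum, and 5.03% and 5.32% among protein-coding genes. When a mean of 5 FPKM was required, 1 was higher and 5 lower, since Bag2, Dnajc6 and Dnajc25 fall under that minimum. Of all genes at that mean, 7.17% were higher and 6.33% lower. With a fold over 2 on the same scale, 0 were higher and 0 lower, as Dnaja1 and Dnajc10 both lie at -0.98. By that fold, 3.98% of all genes were higher and 3.94% lower. Among the 35 members that reached the minimum and had no overlapping gene and no near-identical copy, 1 was higher, Cct4, and 2 were lower, Hsf1 and Dnajc10. The background there was that of the main setting, 8.22% higher and 8.44% lower. The median over members lay between -0.07 and -0.04 in all settings run. The median of the heat shock factors went from 0.06 to -0.21 when a mean of 5 was required, where Hsf2 is left out. The other 43 of 44 comparisons of role medians stayed within 0.1. Of 80 comparisons for 40 named members, 79 stayed within the counting interval, and Dnajc6 went from -0.90 to -1.55 with a pseudocount of 0.1. Depth limits Bag2, Hspb9, Hsf3 and Hsf5, whose values stand for few fragments.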

Other observations

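The 13 members under a mean FPKM of 1 are mostly genes known from testis or from few cell types. Hspa1l, a testis HSP70 beside Hspa1a, had 0.850 and 0.467 (HSF V30M first, as in each pair here), and 71.4% of its 50-base words lie in Gm10501. Dnajb13, of motile cilia and sperm tails, had 1.04 and 0.846, and Cct6b, the testis form of a chaperonin subunit, had 0.140 and 0.334. Hspb3, a muscle gene mutated in motor neuropathy, is listed at 0 in HSF V30M, where 3 fragments would have given 0.240. In HSF WT it was at 0.277, which stands for only 2 to 3 fragments and is under the limit of 0.334 there. A difference was therefore not detectable at this depth. Hsf2bp, a meiotic protein that binds HSF2 and is no heat shock factor, was at 0.210 in HSF V30M and at 0 in the controls, where the limit is 0.152. Dnajb8, Dnajc22 and Dnajc5g are listed at 0 in both groups, which allows up to 0.176, 0.102 and 0.365 in HSF V30M.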
